A study of Mus musculus with 9 samples.

Results

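Gastrocnemius muscle from young and aged female mice, both given vehicle, was compared by RNA sequencing. The comparison used 6 of the 9 libraries of the series, 3 young and 3 aged, and every change below is aged minus young. Both groups received saline by oral gavage every day over 2 months. The sample titles carry 3M for the young and 23M for the aged group. The remaining 3 libraries came from aged mice given ginkgolide B, and they entered the statistical fit but no comparison here. Strain is not stated in the labels. Nothing in them says that each library is a different animal, and the spread that p-values rest on may be technical. The whole tissue was sequenced, and in such samples fewer cells of a type and less RNA per cell cannot be told apart. Levels are CPM, counts relative to the library's total count after scaling with TMM factors.

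The gastrocnemius is a calf muscle of the hindlimb built mostly of fast fibres, which contract quickly and fuel themselves largely from glycogen, with a smaller oxidative portion that holds slow fibres. Each fibre type runs on its own set of myosin, troponin and tropomyosin isoforms, and motor nerve activity maintains that set. With age this muscle is known to lose mass and force, to lose and regain nerve contacts, and to shift its balance of fibre types, protein synthesis and breakdown.

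Of 56791 genes in the table, 17534 had enough counts to be tested. In edgeR's quasi-likelihood test 1508 of them differed at an adjusted p under 0.05, which is 8.6% of the genes tested. Those called higher with age numbered 757 (4.32%) and those called lower 751 (4.28%). The median change over all 17534 genes tested was -0.00216 on the log2 scale. The 3 aged libraries lay wholly above the 3 young ones at 17.5% of genes tested and wholly below them at 16.9%. A call survived leaving out each of the 6 libraries in turn at 621 genes, which is 3.54% of those tested. Without young replicate 3 the number called was 749, without aged replicate 3 it was 823, without young replicate 2 it was 866 and without aged replicate 2 it was 935.

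Most calls were of moderate size. The median log2 fold change was 0.80 among genes called higher and -0.67 among genes called lower. A log2 size of 1 or more was fitted for 287 of the genes called higher and 237 of those called lower. A log2 size of 4 or more was reached by 14 genes called higher and by 26 called lower. Calls were more frequent at high levels, from 1.70% of 4520 genes with a mean under 1 CPM to 41.4% of 70 genes with a mean of 1000 CPM or more.

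**Figure D1:**
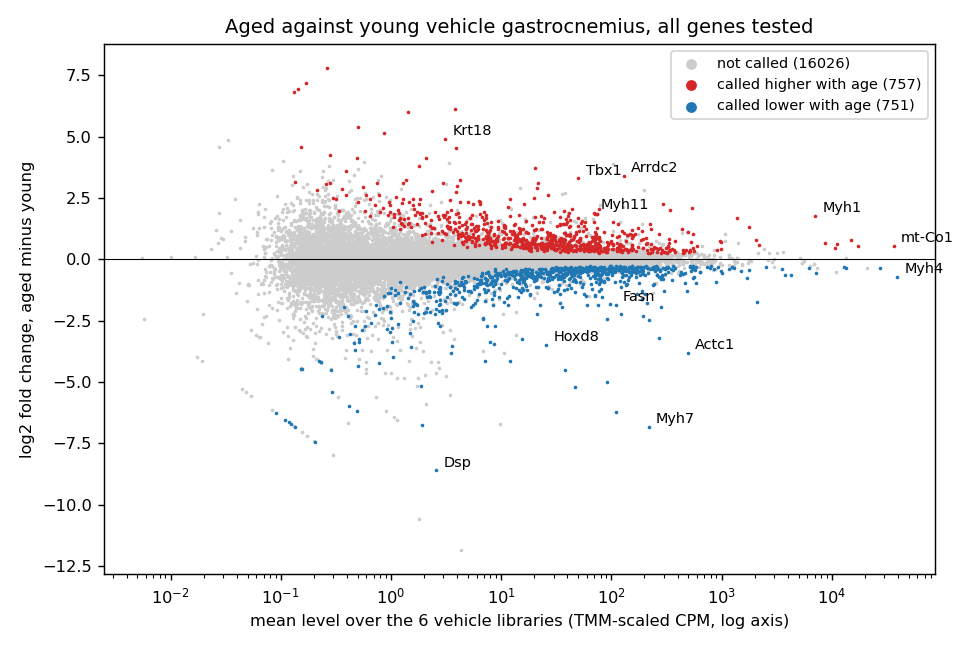
Log2 fold change (aged minus young, vertical axis) against the mean level over the 6 vehicle libraries (CPM, logarithmic horizontal axis) for the 17534 genes tested. Each point is a gene, red where called higher with age (757), blue where called lower (751) and grey where not called, and the blue points reach further from 0 than the red ones at levels above 100 CPM, down to -6.82 at Myh7.

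Total counts ran from 51543383 to 61680520 in the 6 vehicle libraries, and 22616 to 24185 genes had a count. Libraries of a group differed by more than sampling noise. Young replicate 1 stood apart from the other young libraries in genes of several kinds. The B cell marker Cd79a was at 18.2 CPM in it, against 0.0694 and 0.0576 CPM in young replicates 2 and 3. The skin markers Krt5, Krt14 and Dsp summed to 1.52 CPM in it, against 42.6 and 31.3 CPM. Counts for gene lists that this library moves are given below with and without it. The ginkgolide B libraries also stood apart, and without them the fit of the 6 vehicle libraries called 2261 of 17037 genes (13.3%), of which 1180 were higher. Of the 1508 calls, 1422 remained in that fit. Of the cell type marker sets, muscle fibre markers (Ckm, Acta1, Myh4, Tnnt3 and Mylpf) had the highest sum in all 6 libraries. They summed to 104847 to 115095 CPM in the young and 74942 to 82995 CPM in the aged libraries, with 3 of 5 called lower.

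Genes were read in lists by function, shown in the plot of list members called. Slow filament, fast filament, Schwann cell, tendon and skin genes stood at the lower end of that plot. At the higher end were mitochondrially encoded, ATP synthase, red blood cell, endothelial, complex IV with cytochrome c, and glucocorticoid responsive genes.

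**Figure D2:**
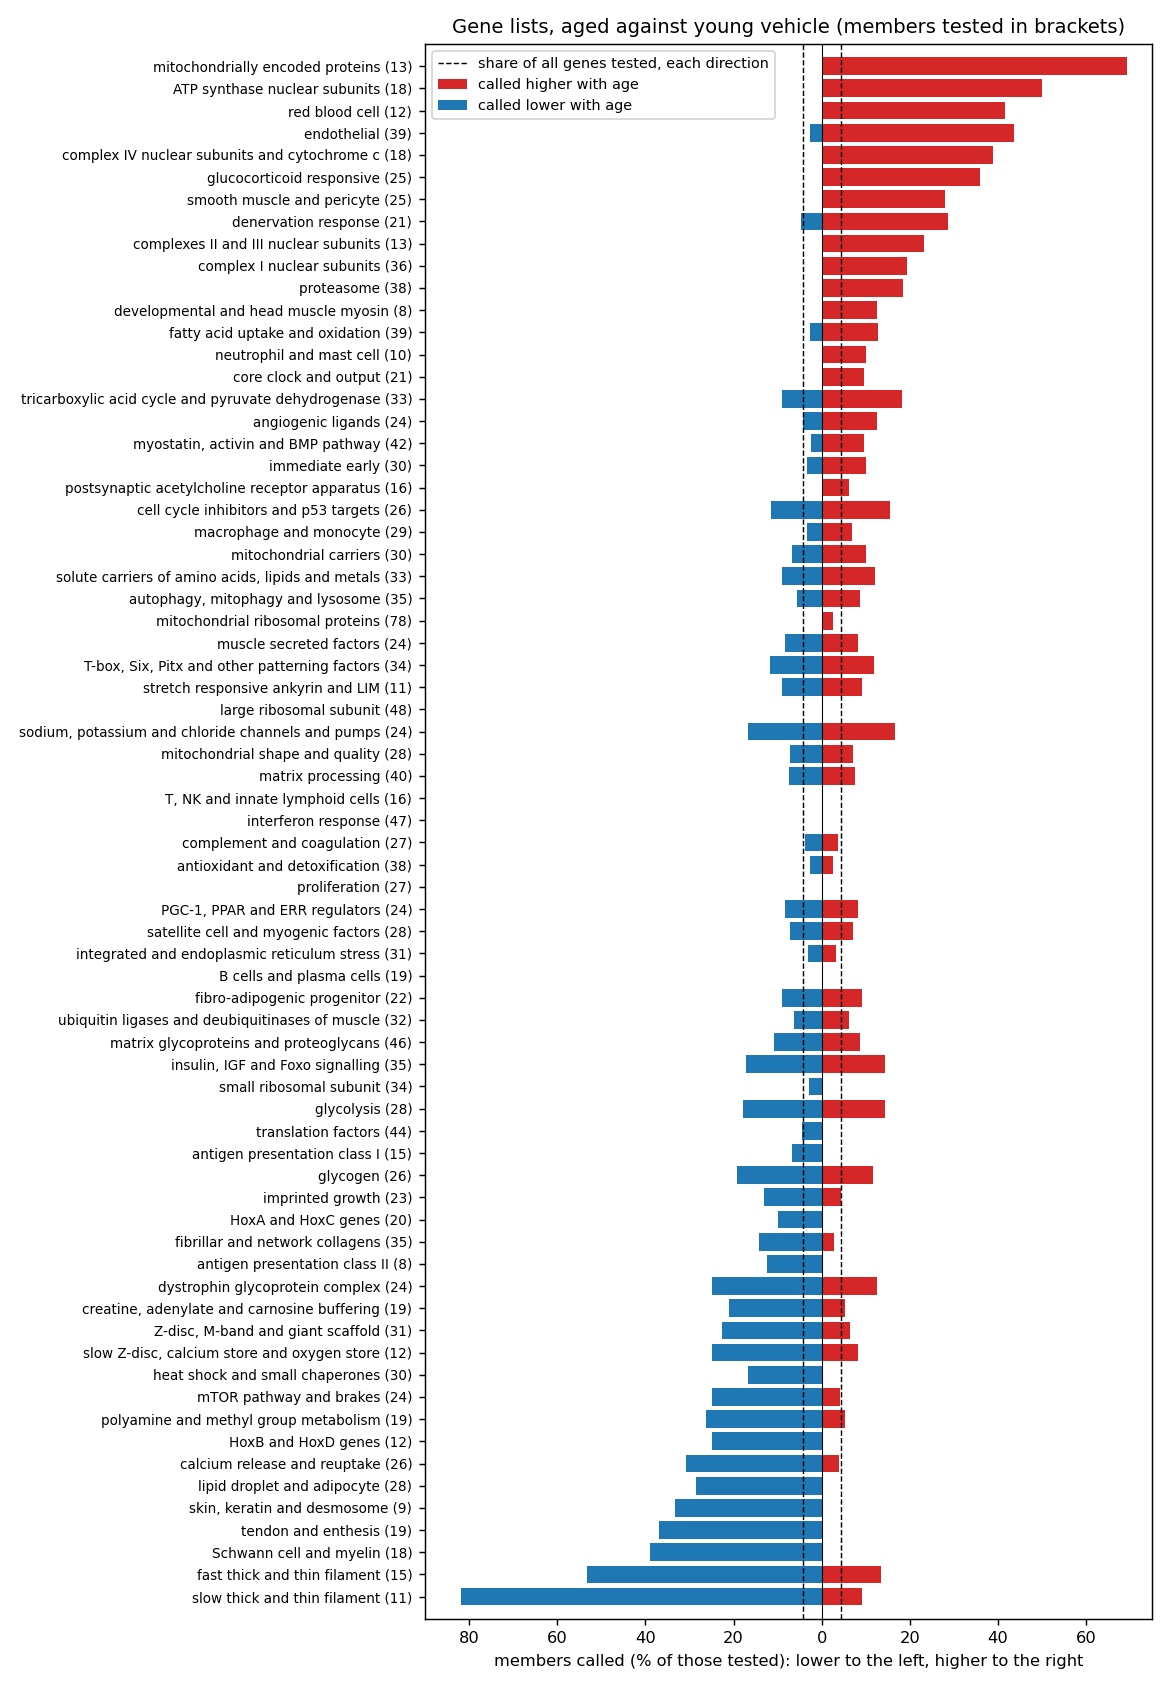
Share of each list's tested members called higher (red, to the right) or lower (blue, to the left) with age, in percent, for lists with at least 8 members tested (number in brackets). Dashed lines mark the share among all genes tested, 4.32% higher and 4.28% lower, and the slow thick and thin filament list has the highest share called lower, with 9 of 11.

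Slow fibres express a muscle program of their own, and several of its filament genes were near absent in the aged libraries. Of 11 slow thick and thin filament genes tested, 9 fell and 1 rose, with a median log2 fold change of -3.81. The calls did not rest on the other libraries of the fit: the 6 vehicle libraries alone called 9 lower and 1 higher. DESeq2 and limma-voom, each run on all 9 libraries, gave the same counts. The list was 8 or 9 lower without each library in turn. The portion of the muscle held in each piece of tissue was not measured, and its part in these differences was not tested. Promoters of 3 of the 9 members that fell are shown, each with 1 RefSeq start. The windows run from 250 bases before to 50 bases after the start (GRCm38.p6, printed 5′ to 3′ on the gene's strand, with strand + for Tnnc1 and strand - for Tnnt1 and Actc1). Capitals mark 3 motifs on either strand. The TATA box, at which transcription machinery can assemble, was searched as TATAAA. The M-CAT motif of muscle promoters was searched as CATTCC. The E-box that MyoD-type factors bind was searched as CAGCTG. Each window shown holds 1 match, so no matches overlap in them. The TATAAA of Tnnt1 lies before the annotated start, and that of Actc1 lies after it, in the last 50 bases of the window.
Tnnc1, chr14:31208062-31208361: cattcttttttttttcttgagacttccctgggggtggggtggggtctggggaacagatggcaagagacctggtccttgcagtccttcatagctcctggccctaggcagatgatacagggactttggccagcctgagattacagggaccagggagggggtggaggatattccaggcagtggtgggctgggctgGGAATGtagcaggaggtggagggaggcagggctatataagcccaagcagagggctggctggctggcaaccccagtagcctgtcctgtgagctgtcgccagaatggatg
Tnnt1, chr7:4515926-4516225: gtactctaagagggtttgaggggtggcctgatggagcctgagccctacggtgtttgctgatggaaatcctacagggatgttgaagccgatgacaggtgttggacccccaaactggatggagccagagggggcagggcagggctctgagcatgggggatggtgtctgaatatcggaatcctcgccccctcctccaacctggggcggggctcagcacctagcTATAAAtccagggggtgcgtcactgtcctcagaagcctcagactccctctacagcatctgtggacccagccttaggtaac
Actc1, chr2:114052826-114053125: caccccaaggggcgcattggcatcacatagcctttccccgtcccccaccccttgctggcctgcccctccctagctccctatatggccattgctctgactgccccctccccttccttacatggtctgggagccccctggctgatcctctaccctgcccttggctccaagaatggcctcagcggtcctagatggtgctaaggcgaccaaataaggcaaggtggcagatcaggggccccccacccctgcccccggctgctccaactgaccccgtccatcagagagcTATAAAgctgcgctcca
Among the 11 list members, all matched to RefSeq windows, the TATA box was found in 2 (18.2%), the M-CAT motif in 3 (27.3%) and the E-box in 4 (36.4%). The same letters were found in 14.2%, 14.6% and 16.1% of 27025 promoters of the same length. Both list windows with a TATA box are among those shown, and none with an E-box is. These matches are a description of the windows and not binding sites.

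Myh7 encodes the slow heavy chain of myosin and was at 553, 293 and 449 CPM in the young and 2.11, 5.42 and 3.92 CPM in the aged libraries, a log2 fold change of -6.82 (SE 0.44, adjusted p = 0.000127). Myl2, the slow regulatory light chain, was at 199, 244 and 204 CPM in the young and 1.71, 5.15 and 1.81 CPM in the aged libraries, with -6.21 (SE 0.46, adjusted p = 0.000291). Every aged library was under 6 CPM for both genes, and no young library was under 199 CPM. Myl2 had a log2 fold change of -6.94 without aged replicate 2. Tnnc1, the calcium sensing troponin of slow and cardiac muscle, was at 122, 65.3 and 88.1 CPM in the young and 1.67, 3.35 and 2.43 CPM in the aged libraries. Tnnt1 and Tnni1, the slow troponins T and I, fell by 4.98 and 4.52 on the log2 scale. Their aged libraries were tight, at 4.75, 6.0 and 6.09 CPM for Tnnt1 and 3.03, 3.22 and 3.19 CPM for Tnni1, against 205, 152 and 175 CPM and 89.1, 60.5 and 67.6 CPM in the young. 

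Other slow filament genes fell less far. Actc1, the cardiac actin, was at 885, 877 and 1019 CPM in the young and 74.4, 67.9 and 55.6 CPM in the aged libraries, with a log2 fold change of -3.81 (SE 0.12, adjusted p = 5.01e-09). Myl3, the slow essential light chain, fell by 2.32 (SE 0.20) and Tpm3, the slow tropomyosin, by 2.23 (SE 0.18). In both, the highest aged library lay well under the lowest young one, with Tpm3 at 249.9, 156 and 194 CPM in the young and 41.4, 42.5 and 44.4 CPM in the aged libraries. A second list held 12 slow Z-disc, calcium store and oxygen store genes, of which 3 fell, 1 rose and 8 were not called, with a median of -0.10. Atp2a2, the slow and cardiac calcium pump of the sarcoplasmic reticulum, was at 591, 393 and 484 CPM in the young and 50.4, 53.7 and 53.2 CPM in the aged libraries, with -3.22 (SE 0.15, adjusted p = 1.95e-07). Myom3, an M-band protein of slow and intermediate fibres, fell by 1.84 (SE 0.18), and Myoz2, a slow Z-disc protein, was at 104, 114 and 96.1 CPM in the young and 21.1, 52.6 and 42.3 CPM in the aged libraries, with -1.44 (SE 0.32, adjusted p = 0.0309). Myoz2 lost its call on leaving out young replicates 1, 2 or 3 or aged replicate 3 (adjusted p of 0.0604 to 0.0918).

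Not every slow or oxidative gene moved down. Mybpc1, the slow myosin binding protein C, which fast fibres also hold, rose and was at 1083, 1818 and 1586 CPM in the young and 2391, 2596 and 2737 CPM in the aged libraries, with 0.78 (SE 0.15, adjusted p = 0.00741). Mb, the oxygen store of oxidative fibres, was at 894, 1198 and 939.8 CPM in the young and 2196, 2621 and 2788 CPM in the aged libraries, with 1.33 (SE 0.22, adjusted p = 0.00732). The aged libraries lay above the young ones for both. Casq2, the slow calcium store protein, was at 41.7, 52 and 49.9 CPM in the young and 43.6, 70.5 and 48.4 CPM in the aged libraries, and the groups overlapped (adjusted p = 0.674). The last 2 members were picked after their values were seen. Myl6b, a slow and embryonic light chain, fell by 0.93 (SE 0.21, adjusted p = 0.0161). Myh7b, a slow tonic myosin, was at 19.9, 7.17 and 6.79 CPM in the young and 7.79, 5.08 and 3.84 CPM in the aged libraries, which overlapped (adjusted p = 0.413). Myl6b lost its call on leaving out young replicates 2 or 3 or aged replicates 1, 2 or 3 (adjusted p of 0.052 to 0.0844).

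**Figure D3:**
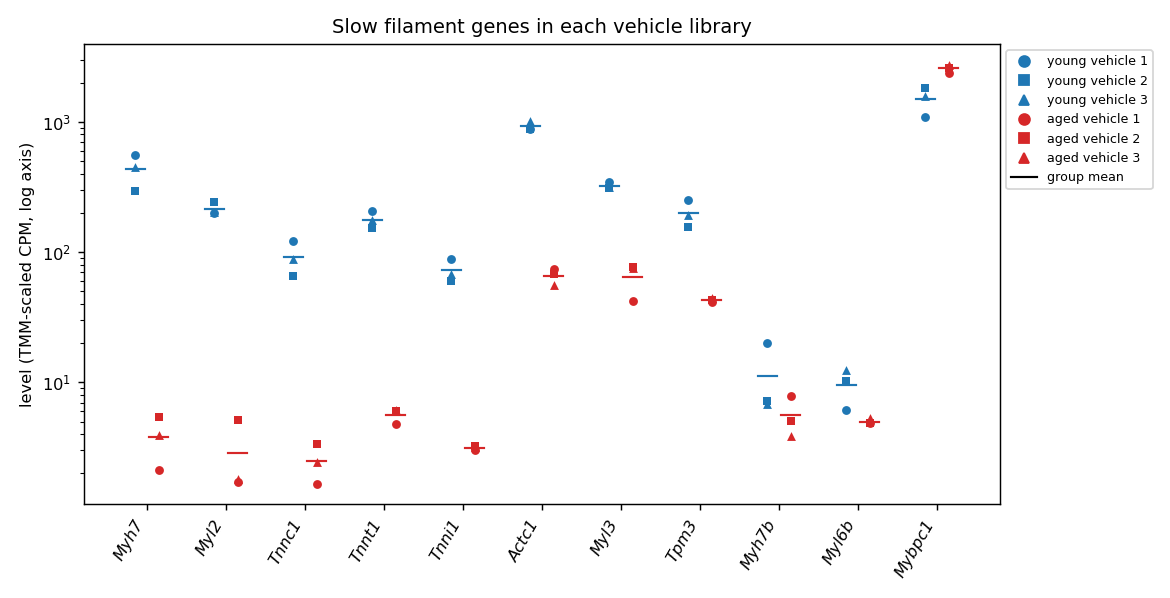
Level of each slow thick and thin filament gene in each vehicle library (CPM, logarithmic vertical axis), young in blue and aged in red, with the symbol giving the replicate and the line the mean of 3 libraries. Myh7, Myl2, Tnnc1, Tnnt1 and Tnni1 sit under 7 CPM in all 3 aged libraries, and Mybpc1 is the member with aged libraries above young ones.

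Each fibre type is named by its myosin heavy chain. Shares of the adult heavy chains Myh1, Myh2, Myh4 and Myh7 were computed in each library from counts divided by gene length, and describe the mix of these 4 mRNAs. Myh4, the IIb chain of the fastest fibres, held 90.6, 86.6 and 89.5% in the young and 79.2, 70.1 and 67.7% in the aged libraries. Myh1, the IIx chain, held 4.59, 6.84 and 5.34% in the young and 19.7, 27.2 and 30.04% in the aged libraries. Myh2, the IIa chain of fast oxidative fibres, held 4.08, 6.17 and 4.66% and then 1.11, 2.73 and 2.21%. Myh7 went from 0.739, 0.383 and 0.535% to 0.00328, 0.00955 and 0.00713%. The groups did not overlap for any of the 4 chains. On the level scale Myh1 was at 2533, 3852 and 3307 CPM in the young and 9347, 11370 and 12190 CPM in the aged libraries, with 1.76 (SE 0.15, adjusted p = 6.22e-05), and Myh4 at 47310, 46210 and 52470 CPM in the young and 35610, 27760 and 26040 CPM in the aged libraries, with -0.71 (SE 0.12, adjusted p = 0.00277). Myh2 had -1.74 (SE 0.28, adjusted p = 0.00782). These 3 fast genes are near-identical neighbours, and counting may have split or dropped reads that match more than 1 of them.

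**Figure D4:**
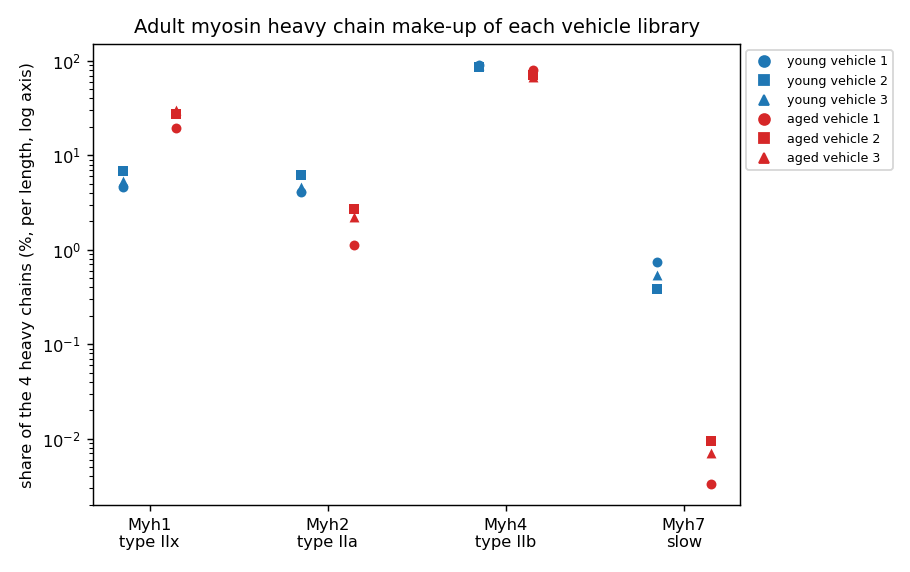
Share of each of 4 adult myosin heavy chains in their sum (%, from counts per gene length, logarithmic vertical axis) in each vehicle library, young in blue and aged in red, with the symbol giving the replicate. Myh1 lies at 4.59 to 6.84% in the young and 19.7 to 30.04% in the aged libraries, and Myh7 goes from 0.383 to 0.739% to under 0.01%.

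Slow or cardiac isoforms were set against their fast or skeletal partners in 11 pairs, as the share of the first gene in the sum of both per gene length. In 9 of these pairs all aged libraries lay below all young ones and in 2 above, with the same counts when gene length was not used. The slow or cardiac member took a smaller share in the aged libraries for troponin I, T and C, both light chains, tropomyosin, calcium pump, myozenin and actin, and a larger one for myosin binding protein C and calsequestrin. For Tnni1 against Tnni2 the share went from 0.416 to 0.668% in the young to 0.0237 to 0.0268% in the aged libraries. For Actc1 against Acta1 it went from 2.49 to 2.91% to 0.214 to 0.318%. The troponin C pair cannot be read as a true ratio, because the fast gene Tnnc2 was listed at only 1.12, 0.954 and 0.82 CPM in the young and 0.792, 0.616 and 0.575 CPM in the aged libraries. Mybpc1 took 14.2 to 22.6% of its sum with Mybpc2 in the young and 32.8 to 41.9% in the aged libraries, and Casq2 took 1.51 to 1.62% of its sum with Casq1 and then 2.14 to 4.02%. Another 13 pairs set general, heart, brain, liver, fetal or all-fibre forms against muscle, adult or fast-fibre ones. In 4 of them all aged libraries lay below all young ones, in 3 above, and in 6 the groups overlapped. Ldhb, the heart form of lactate dehydrogenase, went from 17.4 to 20.6% of its sum with Ldha to 10.7 to 14.1%. Eef1a1, the general elongation factor, went from 17.2 to 19.2% of its sum with the muscle form Eef1a2 to 25.6 to 27.3%.

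More fast filament genes fell than rose. Of 15 tested, 8 fell and 2 rose, with a median log2 fold change of -0.36. Mybph, a fast fibre relative of myosin binding protein C, was at 295, 249.6 and 268 CPM in the young and 113, 122 and 97.6 CPM in the aged libraries, with -1.29 (SE 0.11, adjusted p = 5.57e-05). Actn3, the fast fibre alpha actinin, was at 8968, 8433 and 8495 CPM in the young and 6932, 5466 and 5019 CPM in the aged libraries, with -0.57 (SE 0.11, adjusted p = 0.00561). Mylk2, the kinase of fast regulatory light chain, rose and was at 866, 705 and 703 CPM in the young and 1446, 1234 and 992 CPM in the aged libraries, with 0.69 (SE 0.14, adjusted p = 0.0103). Acta1, the skeletal actin, fell by 0.37 (SE 0.09) and Tnnt3, the fast troponin T, by 0.36 (SE 0.10). Mylk2 lost its call on leaving out young replicates 2 or 3 (adjusted p of 0.052 to 0.0556). Acta1 lost its call on leaving out young replicates 2 or 3 or aged replicates 1 or 3 (adjusted p of 0.0619 to 0.0901). Tnnt3 lost its call on leaving out young replicates 2 or 3 or aged replicates 1, 2 or 3 (adjusted p of 0.0928 to 0.135). Fast filament genes called lower numbered 5 without young replicates 2 or 3 or aged replicate 3. Of 8 developmental and head muscle myosin genes only Myh13, of extraocular muscle, was called, at 3.8, 4.04 and 2.92 CPM in the young and 9.03, 6.46 and 6.83 CPM in the aged libraries and 1.05 (SE 0.21, adjusted p = 0.0092). Myh13 lost its call on leaving out young replicate 3 (adjusted p = 0.06).

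Genes of the Z-disc and M-band, which anchor the filaments, fell at 7 of 31 and rose at 2. Synpo2l, an actin binding Z-disc protein, was at 251, 223 and 233 CPM in the young and 119, 131 and 108 CPM in the aged libraries, with -0.98 (SE 0.09, adjusted p = 9.06e-05). Speg, a kinase of the sarcoplasmic reticulum junction, fell by 0.56 (SE 0.10), and Synm, the intermediate filament protein synemin, by 0.51 (SE 0.10). Tcap, the titin cap, was at 2051, 1677 and 1450 CPM in the young and 3119, 2320 and 2381 CPM in the aged libraries, with 0.59 (SE 0.13, adjusted p = 0.0164). Myot, the Z-disc protein myotilin, rose by 0.40 (SE 0.07) and was named after its values were seen. Groups did not overlap in any of these. Tcap lost its call on leaving out young replicates 2 or 3 or aged replicate 1 (adjusted p of 0.0514 to 0.0698). Ankrd1, a nuclear and sarcomeric protein induced by stretch and injury, was among the 15 largest rises, at 4.08, 4.06 and 2.92 CPM in the young and 22.7, 12.9 and 26 CPM in the aged libraries, with 2.48 (SE 0.24, adjusted p = 0.000107). 

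The dystrophin complex, which ties the fibre's skeleton to its surroundings, moved in both directions, with 6 of 24 lower and 3 higher. Dystrophin complex genes called lower numbered 2 without young replicate 3 or aged replicate 3 and 3 without young replicate 2 or aged replicates 1 or 2. The members that rose were Nos1, the nitric oxide synthase docked on dystrophin, Utrn, the relative of dystrophin found at nerve contacts, and Dmd itself. Nos1 was at 83.1, 109 and 113 CPM in the young and 166, 185 and 156 CPM in the aged libraries, with 0.73 (SE 0.13, adjusted p = 0.00561), and Utrn at 48.7, 47.9 and 51.8 CPM in the young and 81.5, 66.9 and 72.2 CPM in the aged libraries, with 0.57 (SE 0.11, adjusted p = 0.00582). Sntb1, a syntrophin, fell farthest and was at 15, 10.9 and 13.8 CPM in the young and 3.68, 4.25 and 3.12 CPM in the aged libraries, with -1.84 (SE 0.19, adjusted p = 0.000114). Cav3, the muscle caveolin, was at 36, 41.2 and 42.9 CPM in the young and 26.8, 24.5 and 24.1 CPM in the aged libraries, with -0.67 (SE 0.09, adjusted p = 0.000832). Dmd was at 150.4, 123 and 158 CPM in the young and 226, 179.5 and 204 CPM in the aged libraries, with 0.50 (SE 0.13, adjusted p = 0.0325). Dmd lost its call on leaving out young replicates 2 or 3 or aged replicates 1 or 3 (adjusted p of 0.0529 to 0.14).

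More calcium handling genes fell than rose. Of 26 calcium release and reuptake genes, 8 fell and 1 rose, and 21 had negative fold changes, with a median of -0.27. Calcium handling genes called lower numbered 5 without aged replicate 2, and none was called higher on leaving out any of the 6 libraries. Ryr1, the calcium release channel, was at 4828, 4176 and 4595 CPM in the young and 3544, 2777 and 2489 CPM in the aged libraries, with -0.63 (SE 0.12, adjusted p = 0.00684). Casq1, the fast calcium store protein, was at 1806, 2345 and 2317 CPM in the young and 1421, 1201 and 1185 CPM in the aged libraries, with -0.76 (SE 0.12, adjusted p = 0.00185). Jph2, which holds the T-tubule to the calcium store, was at 1095, 1186 and 1189 CPM in the young and 715, 571 and 546 CPM in the aged libraries, with -0.92 (SE 0.10, adjusted p = 0.000219). Mrln, a small inhibitor of the calcium pump, fell by 0.78 (SE 0.10). All 3 aged libraries lay below all 3 young ones for 16 of the 26 genes, against 16.9% of all genes tested. 

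Ion channels and pumps of the fibre surface split evenly, with 4 of 24 higher and 4 lower. Kcnj2, the inward rectifier potassium channel that sets the resting potential, was at 60.4, 87.4 and 96.5 CPM in the young and 27.7, 29.8 and 35 CPM in the aged libraries, with -1.40 (SE 0.18, adjusted p = 0.000912). Kcnn3, the calcium activated potassium channel known to appear in denervated muscle, was at 2.7, 2.86 and 3.02 CPM in the young and 10.5, 11.2 and 11.5 CPM in the aged libraries, with 1.95 (SE 0.24, adjusted p = 0.000415). Kcnc1, a fast delayed rectifier, was at 88.1, 113 and 109.5 CPM in the young and 257, 176 and 190.1 CPM in the aged libraries, with 1.01 (SE 0.15, adjusted p = 0.00185). 

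Genes that respond to loss of the nerve rose at 6 of 21 and fell at 1, with a median log2 fold change of 0.83. Dach2, a transcription factor that relays loss of nerve activity, was at 4.2, 2.65 and 3.07 CPM in the young and 8.64, 8.76 and 6.55 CPM in the aged libraries, with 1.27 (SE 0.24, adjusted p = 0.00578). Gadd45a, a stress response gene of denervated nuclei, was at 17.8, 13.3 and 13.9 CPM in the young and 29.6, 20.2 and 27.5 CPM in the aged libraries, with 0.78 (SE 0.15, adjusted p = 0.00843). Peg3, an imprinted zinc finger gene, was at 34.9, 25.6 and 36.1 CPM in the young and 82.3, 86 and 76.1 CPM in the aged libraries, with 1.34 (SE 0.25, adjusted p = 0.00923). Gdf5, a bone morphogenetic ligand that protects denervated muscle, was picked after its values were seen, and its levels were low, at 0.0591, 0.139 and 0.0576 CPM in the young and 0.528, 0.505 and 0.87 CPM in the aged libraries, with 2.88 (SE 0.61, adjusted p = 0.0121). Without each library in turn 4 to 9 members of the list were higher. Gdf5 lost its call on leaving out young replicate 3 or aged replicate 3 (adjusted p of 0.0671 to 0.07). Runx1 and Myog, also named after their values were seen, were not called. Runx1 was at 2.44, 2.86 and 3.64 CPM in the young and 5.93, 4.86 and 8.03 CPM in the aged libraries without overlap (adjusted p = 0.0685), and Myog was at 7.37, 6.75 and 6.25 CPM in the young and 15.4, 5.81 and 11.3 CPM in the aged libraries with overlap (adjusted p = 0.192).

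At the receptor itself, 1 of 16 postsynaptic genes was called. Chrng, the fetal acetylcholine receptor subunit, was at 0.0295, 0 and 0.101 CPM in the young and 2.27, 0.711 and 2.12 CPM in the aged libraries, with 5.16 (SE 1.03, adjusted p = 0.00963). Chrne, the adult subunit that replaces it, was at 12.6, 13.9 and 13.6 CPM in the young and 15.2, 14.2 and 12 CPM in the aged libraries, which overlapped (adjusted p = 0.919). The fetal share of the pair, per gene length, was 0.095, 0 and 0.299% in the young and 5.73, 1.99 and 6.67% in the aged libraries. Mymx, a membrane fusion protein of forming fibres, is outside the naming rule and was at 0, 0.0347 and 0.0288 CPM in the young and 1.44, 0.3 and 1.18 CPM in the aged libraries, with 5.40 (SE 0.87, adjusted p = 0.0025). All aged libraries lay above all young ones for Chrng and for Mymx, at levels near or under 2 CPM. Young levels of both genes were at or near 0, so the sizes of their fold changes are uncertain. Chrng had a log2 fold change of 6.54 without young replicate 3.

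Schwann cells wrap the nerve, and 7 of their 18 genes tested fell. All 18 had negative fold changes, and the median was -0.81. In 11 of them all aged libraries lay below all young ones, against 16.9% of all genes tested. Summed, the list was at 289 to 516 CPM in the young and 150.2 to 162 CPM in the aged libraries. Cadm4, which joins glia to axons, was at 6.91, 11.9 and 6.61 CPM in the young and 2.59, 1.9 and 2.13 CPM in the aged libraries, with -1.94 (SE 0.29, adjusted p = 0.00144). Young replicate 2 was the highest library for Cadm4. Leaving out young replicate 1 gave 9 members called lower. Schwann cell genes called lower numbered 4 without aged replicate 3. The amount of nerve in each piece of tissue was not measured, and its part in these differences was not tested.

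Transcription factors that lay out the limb included some of the largest changes. Of 12 HoxB and HoxD genes tested, 3 fell, all neighbours in the HoxD cluster. Hoxd8 was at 49.4, 43.1 and 48.4 CPM in the young and 4.1, 3.71 and 4.8 CPM in the aged libraries, with -3.48 (SE 0.12, adjusted p = 7.09e-09). Hoxd9 was at 23.9, 20.8 and 23.1 CPM in the young and 1.3, 1.34 and 1.18 CPM in the aged libraries and Hoxd10 at 4.22, 2.41 and 4.35 CPM in the young and 0.0352, 0.0632 and 0.197 CPM in the aged libraries. Every young library exceeded every aged one by a wide margin for these 3 genes. Hoxd10 had a log2 fold change of -6.13 without aged replicate 3. Of 20 HoxA and HoxC genes, 2 fell, by less. Hoxc10 was at 52.8, 58.2 and 57.8 CPM in the young and 42.6, 39.7 and 41 CPM in the aged libraries, with -0.45 (SE 0.09, adjusted p = 0.00868), and Hoxc11 at 10.5, 11 and 9.37 CPM in the young and 6.3, 5.86 and 6.39 CPM in the aged libraries, with -0.74 (SE 0.16, adjusted p = 0.0138). Hoxc11 lost its call on leaving out young replicate 2 or aged replicate 2 (adjusted p of 0.0619 to 0.0659).

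Among 34 other patterning factors, 4 rose and 4 fell. Patterning factors called lower numbered 2 without young replicates 2 or 3 or aged replicates 2 or 3. Six2, a homeobox factor of connective tissue and kidney progenitors, was at 14.8, 14 and 14.5 CPM in the young and 1.3, 1.66 and 1.23 CPM in the aged libraries, with -3.37 (SE 0.17, adjusted p = 3.56e-07). En1, a homeobox factor of the ventral limb surface, was at 4.14, 8.28 and 7.56 CPM in the young and 0.528, 0.6 and 0.608 CPM in the aged libraries, with -3.52 (SE 0.33, adjusted p = 7.72e-05). Barx2, a homeobox factor of muscle progenitors, was at 13.1, 11.6 and 9.83 CPM in the young and 3.45, 1.93 and 1.22 CPM in the aged libraries, with -2.39 (SE 0.53, adjusted p = 0.0218). In the other direction, Sim1 was at 0.295, 0.278 and 0.389 CPM in the young and 6.6, 8.27 and 7.67 CPM in the aged libraries, with 4.54 (SE 0.61, adjusted p = 0.00111), and Tbx1, a T-box factor of head muscle, at 3.94, 12.4 and 11.5 CPM in the young and 85.6, 92.4 and 95.1 CPM in the aged libraries, with 3.30 (SE 0.38, adjusted p = 0.00167). Irx3, an Iroquois homeobox factor, was named after its values were seen and was at 2.35, 2.2 and 1.81 CPM in the young and 7.93, 4.61 and 5.88 CPM in the aged libraries, with 1.53 (SE 0.24, adjusted p = 0.00188). Barx2 lost its call on leaving out young replicates 2 or 3 or aged replicates 2 or 3 (adjusted p of 0.0534 to 0.0931). Pitx1, a factor of hindlimb identity, was also looked at after its values were seen, and was at 0.473, 0.729 and 0.979 CPM in the young and 0.281, 0.837 and 0.345 CPM in the aged libraries, which overlapped (adjusted p = 0.628).

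Growth and wasting signals were mixed. Of 42 genes of the myostatin, activin and bone morphogenetic protein pathway, 4 rose and 1 fell. That is 11.9% called, not far from the 8.6% of all genes tested. The list shares Gdf5 with that of the response to nerve loss. Pathway genes called higher numbered 2 without young replicate 3 or aged replicate 3. Among ligands, Bmp5 was at 2.45, 1.56 and 2.32 CPM in the young and 10.3, 9.36 and 12.3 CPM in the aged libraries, with 2.33 (SE 0.35, adjusted p = 0.00156), and Bmp6 at 16.5, 18.1 and 18.2 CPM in the young and 37.9, 32.1 and 35.8 CPM in the aged libraries, with 1.0 (SE 0.12, adjusted p = 0.000462). Gdf11, a close relative of myostatin, was at 13.3, 13.4 and 13.4 CPM in the young and 5.44, 7.11 and 7.65 CPM in the aged libraries, with -0.99 (SE 0.16, adjusted p = 0.00233). Mstn, myostatin itself, was named after its values were seen and was at 64.7, 49.6 and 60.5 CPM in the young and 45.5, 35.1 and 29 CPM in the aged libraries, without overlap and not called (adjusted p = 0.0707). It was called by DESeq2, by limma-voom, in the fit of the 6 vehicle libraries and without aged replicate 1. 

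Of 35 insulin, IGF and Foxo signalling genes, 5 rose and 6 fell. Insulin and Foxo genes called lower numbered 3 without aged replicates 1, 2 or 3. Igf1, the growth factor of muscle and liver, was at 22.1, 17.4 and 17.2 CPM in the young and 9.96, 10.7 and 12.9 CPM in the aged libraries, with -0.76 (SE 0.17, adjusted p = 0.0185). Igfbp5, the main IGF binding protein of muscle fibres, was at 769, 607 and 688 CPM in the young and 293, 268 and 275 CPM in the aged libraries, with -1.30 (SE 0.10, adjusted p = 3.12e-05). Foxo1 and Foxo3, transcription factors that turn on protein breakdown when insulin signalling is low, both rose. Foxo1 was at 19.8, 16.5 and 16.9 CPM in the young and 94.3, 53.6 and 47 CPM in the aged libraries, with 1.87 (SE 0.26, adjusted p = 0.00268), and Foxo3 at 38.6, 32.9 and 36 CPM in the young and 72, 56.4 and 54.8 CPM in the aged libraries, with 0.77 (SE 0.11, adjusted p = 0.00142). Grb14, an inhibitor of the insulin receptor, was at 15.4, 20.8 and 19.9 CPM in the young and 36.6, 29.4 and 33.1 CPM in the aged libraries, with 0.82 (SE 0.15, adjusted p = 0.00548). Igf1 lost its call on leaving out young replicate 1 or aged replicates 1 or 2 (adjusted p of 0.0595 to 0.0758). The ubiquitin ligases Fbxo32 and Trim63, which Foxo factors turn on in wasting muscle, were not called. Fbxo32 was at 138, 649 and 644 CPM in the young and 337, 337 and 298 CPM in the aged libraries and Trim63 at 184, 252 and 248 CPM in the young and 593, 216 and 245 CPM in the aged libraries (adjusted p = 0.636 and 0.467), and young replicate 1 held the lowest Fbxo32 level. Without that replicate Fbxo32 was called lower. H19, an imprinted RNA next to Igf2, fell and was at 801, 846 and 689.7 CPM in the young and 386, 398 and 430.2 CPM in the aged libraries, with -0.94 (SE 0.15, adjusted p = 0.0035). 

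Of 24 genes of the mTOR pathway, whose kinase drives protein synthesis, 6 fell and 1 rose. Eif4ebp2, a translation inhibitor released by mTOR, was at 265, 247 and 254 CPM in the young and 183, 170.5 and 170.1 CPM in the aged libraries, with -0.55 (SE 0.08, adjusted p = 0.00123). Deptor, a subunit that inhibits mTOR, was at 136, 97.2 and 122 CPM in the young and 85.9, 59 and 60.5 CPM in the aged libraries, with -0.79 (SE 0.18, adjusted p = 0.0184), and Prkag3, the muscle gamma subunit of AMP kinase, at 231, 135 and 147 CPM in the young and 108, 83.1 and 82.3 CPM in the aged libraries, with -0.91 (SE 0.22, adjusted p = 0.032). Castor1, the arginine sensor that holds mTOR off, rose and was at 2.94, 2.2 and 2.27 CPM in the young and 7.57, 4.89 and 4.2 CPM in the aged libraries, with 1.17 (SE 0.26, adjusted p = 0.0149). Deptor lost its call on leaving out young replicate 3 or aged replicates 2 or 3 (adjusted p of 0.0682 to 0.0837). Prkag3 lost its call on leaving out young replicate 3 or aged replicates 2 or 3 (adjusted p of 0.0517 to 0.121). Castor1 lost its call on leaving out young replicates 2 or 3 or aged replicate 1 (adjusted p of 0.0614 to 0.0756). Of 19 polyamine and methyl group genes, 5 fell and 1 rose. Polyamine and methyl genes called lower numbered 2 without aged replicate 2 and 3 without young replicates 1 or 3 or aged replicate 3. Mettl21c, a muscle lysine methyltransferase, was at 26.8, 37.7 and 41 CPM in the young and 11.3, 8.75 and 8.67 CPM in the aged libraries, with -1.88 (SE 0.16, adjusted p = 4.31e-05). Amd1, which makes the precursor for spermidine, was at 159, 144 and 148 CPM in the young and 111, 113 and 109 CPM in the aged libraries, with -0.44 (SE 0.08, adjusted p = 0.00374), and Smox, spermine oxidase, fell by 0.77 (SE 0.17). Smox lost its call on leaving out aged replicates 2 or 3 (adjusted p of 0.0536 to 0.0749).

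Protein turnover genes changed little in size. Of 38 proteasome genes 7 rose and none fell, with a median log2 fold change of 0.14, and none of the 7 calls survived leaving out each library in turn. Proteasome genes called higher numbered 1 without young replicate 3 or aged replicate 3, 2 without young replicate 2 and 3 without aged replicates 1 or 2. Psmb3, a core subunit, was at 65.1, 64.2 and 61.3 CPM in the young and 82.3, 81.9 and 82.4 CPM in the aged libraries, with 0.37 (SE 0.07, adjusted p = 0.00866). Psmb3 lost its call on leaving out young replicate 3 (adjusted p = 0.0542). Heat shock and chaperone genes fell at 5 of 30 and rose at none. Chaperone genes called lower numbered 1 without aged replicate 3, 2 without young replicate 3 or aged replicate 2 and 3 without young replicates 1 or 2. Hsph1, a large chaperone that recharges its partner Hsp70, was at 85.6, 78.9 and 84.6 CPM in the young and 47, 59.7 and 51.1 CPM in the aged libraries, with -0.66 (SE 0.12, adjusted p = 0.00464). The autophagy and lysosome list held 35 genes, with 3 called higher and 2 lower. Optn, a receptor that delivers cargo to autophagosomes, was at 48.8, 50.9 and 49.8 CPM in the young and 90, 72.1 and 74.8 CPM in the aged libraries, with 0.66 (SE 0.10, adjusted p = 0.00196), and Map1lc3a, which coats them, at 132, 142 and 125 CPM in the young and 195, 170.4 and 175 CPM in the aged libraries, with 0.44 (SE 0.08, adjusted p = 0.00682). 

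Glucocorticoids, the adrenal stress hormones, act in muscle through a nuclear receptor that turns on genes for protein breakdown and fuel saving, and their level follows the time of day. Of 25 glucocorticoid responsive genes tested, 9 rose and none fell, and 24 had positive fold changes, with a median of 1.27. The list overlaps that of Foxo signalling in Foxo1 and Foxo3. Leaving out young replicate 3 gave 5 called higher. Young replicate 1 was the highest young library for many of them, and without it 14 were higher, 1 was lower and the median was 1.72. DESeq2 called 14 higher, limma-voom 16 and the fit of the 6 vehicle libraries 7.

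Tsc22d3, a mediator of the hormone's action that is also called GILZ, was at 178, 90 and 93 CPM in the young and 390.2, 307 and 292 CPM in the aged libraries, with 1.46 (SE 0.25, adjusted p = 0.00918). Nfkbia, the inhibitor of NF-kappaB, was at 28, 17.9 and 16.2 CPM in the young and 75.4, 48.7 and 44.2 CPM in the aged libraries, with 1.44 (SE 0.25, adjusted p = 0.00714). Arrdc2, an arrestin family gene, was at 49.1, 8.99 and 8.58 CPM in the young and 252, 252 and 204 CPM in the aged libraries, with 3.41 (SE 0.75, adjusted p = 0.0412). For these 3 genes the aged libraries lay above all young ones, and young replicate 1 lay between. Arrdc2 lost its call on leaving out young replicates 2 or 3 or aged replicates 1, 2 or 3 (adjusted p of 0.097 to 0.102). Arrdc2 had a log2 fold change of 4.75 without young replicate 1. Klf9, Klf15 and Cebpb, transcription factors induced by the hormone, were picked after their values were seen. Klf9 rose by 1.05 (SE 0.20), Cebpb by 1.05 (SE 0.17) and Klf15 by 0.88 (SE 0.23). Klf9 lost its call on leaving out young replicate 3 (adjusted p = 0.0587). Klf15 lost its call on leaving out young replicates 1, 2 or 3 or aged replicate 2 (adjusted p of 0.0617 to 0.133). Nr3c1, the receptor gene itself, was at 90.1, 109.8 and 137 CPM in the young and 141, 114 and 102 CPM in the aged libraries, which overlapped (adjusted p = 0.804). It too was named after its values were seen.

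Members with the widest spread were not called. Ddit4, a brake on mTOR also called REDD1, was at 30, 4.65 and 5.2 CPM in the young and 416, 103 and 69.3 CPM in the aged libraries (adjusted p = 0.0849). Mt1, a metallothionein, was at 12.2, 8.45 and 8.36 CPM in the young and 123, 29.5 and 30.3 CPM in the aged libraries (adjusted p = 0.0537), and Sgk1, a hormone induced kinase, at 196, 55.4 and 52.6 CPM in the young and 266, 319 and 244 CPM in the aged libraries (adjusted p = 0.158). Groups did not overlap for these 3 genes, which were chosen after their values were seen. Young replicate 1 was the highest young library and aged replicate 1 the highest aged library for Ddit4 and Mt1. Without young replicate 1, Ddit4 and Sgk1 were called higher. Outside the list, 3 of the 15 largest rises also had young replicate 1 above the other young libraries. Depp1, a Foxo target, was at 13.3, 4.6 and 4.33 CPM in the young and 36.5, 54.2 and 45.4 CPM in the aged libraries, with 2.61 (SE 0.43, adjusted p = 0.00932). Map3k6, a stress kinase, was at 9.77, 3.92 and 3.89 CPM in the young and 57.2, 20.9 and 23 CPM in the aged libraries, with 2.52 (SE 0.52, adjusted p = 0.0263), and Slc10a6, a carrier of steroid sulfates, at 1.42, 0.607 and 0.389 CPM in the young and 13, 4.94 and 5.03 CPM in the aged libraries, with 3.24 (SE 0.54, adjusted p = 0.00551). Depp1 had a log2 fold change of 3.35 without young replicate 1. Map3k6 lost its call on leaving out young replicates 2 or 3 (adjusted p of 0.0875 to 0.093). Map3k6 had a log2 fold change of 1.91 without aged replicate 1. Map3k6 had a log2 fold change of 3.11 without young replicate 1. Slc10a6 had a log2 fold change of 2.63 without aged replicate 1. Slc10a6 had a log2 fold change of 3.95 without young replicate 1.

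**Figure D5:**
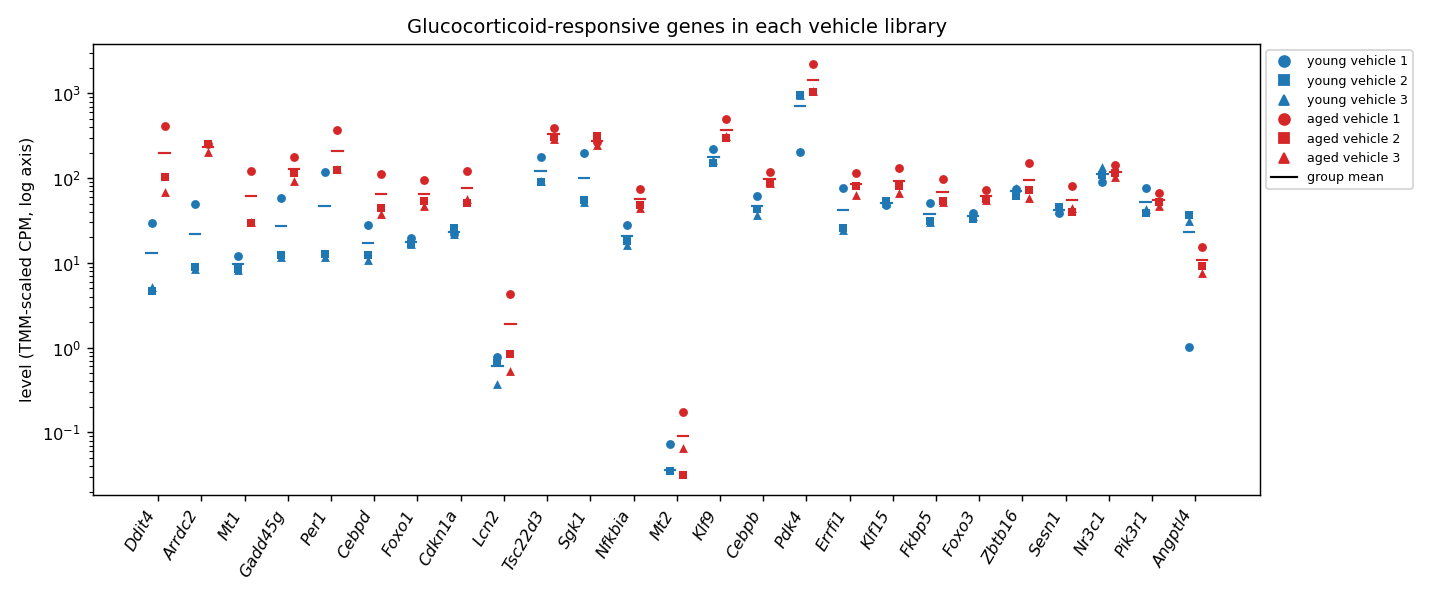
Level of each of 25 glucocorticoid responsive genes in each vehicle library (CPM, logarithmic vertical axis), young in blue and aged in red, with the symbol giving the replicate and the line the mean of 3 libraries. A level of 0, which Mt2 has in young replicate 3, is not drawn, and for Arrdc2 all aged libraries are at 204 CPM or more while young replicate 1 is at 49.1 CPM and the other young libraries are under 9 CPM.

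Clock genes, whose levels cycle through the day in every tissue, differed within the young group. Of 21 clock and output genes, 2 rose and none fell, and without young replicate 1 it was 10 higher and 3 lower. Per1, Dbp and Arntl were named after their values were seen. Per1 was at 118, 12.9 and 11.7 CPM in the young and 373, 127 and 128 CPM in the aged libraries, and Dbp at 129, 11.7 and 13 CPM in the young and 74.5, 55.4 and 59.3 CPM in the aged libraries, with young replicate 1 near or above the lower aged libraries and the other young libraries far below. Arntl, whose level runs opposite to Dbp, was at 9.72, 42.4 and 39 CPM in the young and 9.36, 13.1 and 12.5 CPM in the aged libraries. Noct, a deadenylase under clock control, rose and was at 19.4, 8.78 and 8.97 CPM in the young and 59.6, 44.6 and 39.2 CPM in the aged libraries, with 1.95 (SE 0.31, adjusted p = 0.0066). The labels give no time of sampling, and its part in these differences was not tested.

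Oxidative phosphorylation is the mitochondrial machinery that makes ATP, and its nuclear genes rose in part, with none called lower. Of 36 nuclear genes of complex I, 7 rose, none fell and all 36 had positive fold changes, with a median of 0.25. Of 13 of complexes II and III 3 rose, of 18 of complex IV and cytochrome c 7 rose, and of 18 of ATP synthase 9 rose, with none lower in any. Their medians were 0.24, 0.29 and 0.31. The 3 of complexes II and III, Uqcrc2, Uqcrfs1 and Uqcrq, are all subunits of complex III. Genes of complex I called higher numbered 3 without young replicate 3 or aged replicate 3. Genes of complexes II and III called higher numbered 0 without young replicate 3 or aged replicates 2 or 3 and 1 without young replicate 1. ATP synthase genes called higher numbered 4 without young replicate 3 or aged replicate 3 and 5 without aged replicate 2. Ndufb5, of complex I, was at 106, 139 and 126 CPM in the young and 169, 193 and 195 CPM in the aged libraries, with 0.59 (SE 0.11, adjusted p = 0.00548). Cox7a1, the muscle form of a complex IV subunit, was at 142, 153 and 122 CPM in the young and 215, 262 and 266 CPM in the aged libraries, with 0.83 (SE 0.11, adjusted p = 0.000696). Cox7a2, its general form, rose too, by 0.56 (SE 0.10), and took a smaller share of their sum, 23.3 to 24.8% in the aged against 25.2 to 29.4% in the young libraries. Atp5l, of ATP synthase, was at 101, 99.7 and 90.9 CPM in the young and 136, 150.3 and 154 CPM in the aged libraries, with 0.59 (SE 0.09, adjusted p = 0.00127). 

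Genes that mitochondria encode themselves rose at 9 of 13, with none lower and a median of 0.72. mt-Co1, the core of complex IV, was at 27070, 32310 and 29550 CPM in the young and 43700, 40360 and 45340 CPM in the aged libraries, with 0.54 (SE 0.10, adjusted p = 0.00577). mt-Nd1, of complex I, was at 9404, 12650 and 11230 CPM in the young and 20000, 18040 and 19230 CPM in the aged libraries, with 0.78 (SE 0.10, adjusted p = 0.000537). mt-Rnr2, the large ribosomal RNA of mitochondria, was at 819.8, 617 and 525 CPM in the young and 1904, 2711 and 1787 CPM in the aged libraries, with 1.71 (SE 0.21, adjusted p = 0.00148). Every aged library lay above every young one for these genes. mt-Co2, mt-Co3 and mt-Atp6, transcribed from the same molecule, were listed at 73.4 to 379 CPM, and nuclear copies of such genes can take reads in counting, so their values are uncertain. Nuclear genes for mitochondrial ribosomal proteins had 2 of 78 higher and none lower, or 2.56% called against 8.6% of all genes tested. Ppargc1a, the coactivator that drives mitochondrial genes, was at 25.1, 24.6 and 28.6 CPM in the young and 40.2, 45 and 41.4 CPM in the aged libraries, with 0.69 (SE 0.16, adjusted p = 0.02). Mfn2, which fuses outer membranes, fell and was at 600.3, 597 and 634 CPM in the young and 470.1, 426 and 439.5 CPM in the aged libraries, with -0.46 (SE 0.07, adjusted p = 0.00192). Ppargc1a lost its call on leaving out young replicate 2 or aged replicates 2 or 3 (adjusted p of 0.0637 to 0.091).

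Enzymes that feed the respiratory chain moved both ways. Of 33 genes of the tricarboxylic acid cycle and pyruvate dehydrogenase, 6 rose and 3 fell. Cycle genes called higher numbered 2 without young replicate 3 or aged replicate 1 and 3 without aged replicates 2 or 3. Mdh1, cytosolic malate dehydrogenase, was at 465, 506 and 471 CPM in the young and 661, 718 and 752 CPM in the aged libraries, with 0.56 (SE 0.11, adjusted p = 0.00914), and Mpc1, a pyruvate carrier, rose by 0.55 (SE 0.10). Pcx, pyruvate carboxylase, was at 270.3, 283 and 297 CPM in the young and 79.7, 117 and 82.5 CPM in the aged libraries, with -1.61 (SE 0.13, adjusted p = 3.12e-05). Idh2, the mitochondrial isocitrate dehydrogenase that makes NADPH, was at 373, 318 and 278 CPM in the young and 166, 175 and 142 CPM in the aged libraries, with -1.0 (SE 0.13, adjusted p = 0.000723). The third member to fall was Me1, the cytosolic malic enzyme, by 0.48 (SE 0.09). Fatty acid uptake and oxidation held 39 genes, of which 5 rose and 1 fell. Fatty acid genes called higher numbered 2 without young replicate 3 or aged replicate 3 and 3 without young replicate 2 or aged replicates 1 or 2. Cd36, the fatty acid receptor, was at 280.3, 269.5 and 282 CPM in the young and 417, 473 and 526 CPM in the aged libraries, with 0.77 (SE 0.09, adjusted p = 0.000251), and Cpt1a, a gatekeeper of mitochondrial entry, was at 9.97, 14.3 and 15 CPM in the young and 21.8, 20.6 and 20.8 CPM in the aged libraries, with 0.69 (SE 0.15, adjusted p = 0.0125). Ucp3, the uncoupling protein of muscle, was at 49.3, 127 and 129.8 CPM in the young and 736, 383 and 325 CPM in the aged libraries, with 2.24 (SE 0.48, adjusted p = 0.0343). Ucp3 lost its call on leaving out young replicates 2 or 3 or aged replicates 1, 2 or 3 (adjusted p of 0.0528 to 0.0846).

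Several fat making genes fell. Of 28 lipid droplet and adipocyte genes 8 fell and none rose, with a median of -0.67, or -0.45 and 11 lower without young replicate 1. Lipid genes called lower numbered 5 without young replicates 2 or 3 or aged replicates 1, 2 or 3. Fasn, fatty acid synthase, was at 105, 203 and 204 CPM in the young and 53.1, 34.3 and 55 CPM in the aged libraries, with -1.85 (SE 0.31, adjusted p = 0.00874). Scd2, a desaturase, was at 42.6, 49.3 and 43 CPM in the young and 20.7, 23.7 and 21.6 CPM in the aged libraries, with -1.03 (SE 0.12, adjusted p = 0.000291), and Acaca, acetyl-CoA carboxylase, at 30.6, 52.7 and 52 CPM in the young and 26.8, 23.5 and 30.1 CPM in the aged libraries, with -0.75 (SE 0.18, adjusted p = 0.0263). Slc25a1, which exports the citrate used to make fat, was at 10.8, 17.2 and 14.9 CPM in the young and 3.87, 4.45 and 6.42 CPM in the aged libraries, with -1.54 (SE 0.30, adjusted p = 0.0102). Young replicate 1 held the lowest young level for Fasn, Acaca and Slc25a1. Acaca lost its call on leaving out young replicates 2 or 3 or aged replicates 1, 2 or 3 (adjusted p of 0.0508 to 0.112). Slc25a1 lost its call on leaving out aged replicate 2 (adjusted p = 0.0528). Cfd, the adipocyte protease adipsin, was at 104, 182 and 176 CPM in the young and 19.8, 33.2 and 33.6 CPM in the aged libraries, with -2.42 (SE 0.35, adjusted p = 0.0053), and Adipoq, the adipocyte hormone adiponectin, at 15, 24.9 and 27.2 CPM in the young and 7.42, 11.5 and 9.07 CPM in the aged libraries, with -1.26 (SE 0.31, adjusted p = 0.0341). The adipocyte markers Adipoq, Plin1 and Cfd, 2 of which were called lower, summed to 131.8 to 233.4 CPM in the young and 35.1 to 54.6 CPM in the aged libraries. The part of adipocyte number in these falls was not tested. Adipoq lost its call on leaving out young replicates 2 or 3 or aged replicates 1, 2 or 3 (adjusted p of 0.052 to 0.125).

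Carbohydrate genes were mixed. Of 28 glycolysis genes 4 rose and 5 fell, and of 26 glycogen genes 3 rose and 5 fell. Glycolysis genes called higher numbered 1 without young replicate 3 or aged replicate 2 and 2 without aged replicates 1 or 3. Glycolysis genes called lower numbered 2 without young replicates 2 or 3 or aged replicate 3 and 3 without young replicate 1 or aged replicate 2. Glycogen genes called lower numbered 3 without young replicates 1, 2 or 3 or aged replicates 2 or 3. Ldhb was at 333, 348 and 289 CPM in the young and 137, 162 and 167 CPM in the aged libraries, with -1.06 (SE 0.13, adjusted p = 0.000366), and Pfkfb1, which makes and removes an activator of glycolysis, at 40, 32 and 30.1 CPM in the young and 83, 71.6 and 74.2 CPM in the aged libraries, with 1.16 (SE 0.11, adjusted p = 8.36e-05). Gbe1, the glycogen branching enzyme, was at 37.7, 44 and 47.1 CPM in the young and 87.9, 101 and 126 CPM in the aged libraries, with 1.29 (SE 0.14, adjusted p = 0.000181). Ppp1r3a, the muscle subunit that directs a phosphatase to glycogen, was at 275, 233 and 274 CPM in the young and 465, 373 and 389.6 CPM in the aged libraries, with 0.65 (SE 0.10, adjusted p = 0.00186), while Ppp1r3d, another such subunit, was at 9.35, 12.4 and 12.7 CPM in the young and 2.08, 2.19 and 2.17 CPM in the aged libraries, with -2.42 (SE 0.19, adjusted p = 2.67e-05). Those 2 targeting subunits moved in opposite directions with no overlap. Of 19 creatine, adenylate and carnosine genes, 1 rose and 4 fell. Energy buffering genes called lower numbered 1 without young replicate 2 and 2 without young replicate 3 or aged replicates 1, 2 or 3. Ckmt2, the mitochondrial creatine kinase, was at 639.6, 809 and 718 CPM in the young and 1047, 1237 and 1388 CPM in the aged libraries, with 0.76 (SE 0.12, adjusted p = 0.00258), and Ak1, adenylate kinase, at 1286, 1374 and 1357 CPM in the young and 1076, 983 and 979 CPM in the aged libraries, with -0.40 (SE 0.07, adjusted p = 0.00441). 

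More blood vessel genes rose than fell. Of 39 endothelial genes 17 rose and 1 fell, with a median of 0.49, and 12 of these calls survived leaving out each library in turn. Sema3g, a guidance protein of arterial endothelium, was at 16, 12.9 and 13.4 CPM in the young and 34.8, 30.4 and 34.5 CPM in the aged libraries, with 1.23 (SE 0.14, adjusted p = 0.000215). Gpihbp1, which carries lipoprotein lipase to the capillary wall, was at 26.7, 17.9 and 16.8 CPM in the young and 72.6, 50.5 and 52.7 CPM in the aged libraries, with 1.52 (SE 0.22, adjusted p = 0.00231), and Rgcc was at 30.6, 30.5 and 23.9 CPM in the young and 81, 65 and 71.1 CPM in the aged libraries, with 1.35 (SE 0.13, adjusted p = 0.0001). Aqp1, a water channel of capillaries and red cells, was at 358, 207 and 226 CPM in the young and 698, 549 and 602 CPM in the aged libraries, with 1.22 (SE 0.22, adjusted p = 0.0101). Prox1, the factor that makes lymphatic endothelium and is also active in slow fibres, fell and was at 3.52, 2.38 and 3.61 CPM in the young and 0.774, 1.58 and 0.92 CPM in the aged libraries, with -1.53 (SE 0.38, adjusted p = 0.0258). Prox1 lost its call on leaving out young replicates 1 or 3 or aged replicates 1 or 3 (adjusted p of 0.0601 to 0.117). The endothelial markers Pecam1, Cdh5 and Kdr summed to 232.6 to 252.6 CPM in the young and 320.6 to 349.7 CPM in the aged libraries, with 2 of 3 called higher.

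Smooth muscle and pericyte genes rose at 7 of 25 and fell at none, with a median of 0.59. Myh11, smooth muscle myosin, was at 24.4, 32.4 and 31.1 CPM in the young and 109.8, 106 and 111 CPM in the aged libraries, with 1.89 (SE 0.13, adjusted p = 9e-06). Acta2, smooth muscle actin, was at 27.6, 34.8 and 34.1 CPM in the young and 100.1, 112 and 135 CPM in the aged libraries, with 1.84 (SE 0.16, adjusted p = 5.57e-05). Mylk, the smooth muscle light chain kinase, was at 19.8, 17.1 and 18.2 CPM in the young and 46.1, 52.1 and 51.6 CPM in the aged libraries, with 1.44 (SE 0.10, adjusted p = 1.26e-05), and Cnn1, calponin, at 1.09, 1.91 and 1.21 CPM in the young and 3.15, 4.48 and 6.45 CPM in the aged libraries, with 1.75 (SE 0.30, adjusted p = 0.00383). The aged libraries held 100.1 CPM or more of Acta2 and 106 CPM or more of Myh11, against at most 34.8 and 32.4 CPM in the young. Of 24 angiogenic ligands 3 rose and 1 fell. Angiogenic ligands called higher numbered 1 without young replicates 2 or 3 or aged replicate 3. Fgf1 was at 34.2, 31.1 and 28.5 CPM in the young and 62.4, 55.9 and 62 CPM in the aged libraries, with 0.94 (SE 0.09, adjusted p = 0.000105), and Pdgfa, which recruits mural cells, at 21, 23 and 21 CPM in the young and 11.2, 14.8 and 14.1 CPM in the aged libraries, with -0.69 (SE 0.12, adjusted p = 0.00441). Vegfa was at 229, 235 and 233 CPM in the young and 300.2, 301 and 272 CPM in the aged libraries, without overlap and not called (adjusted p = 0.285). 

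Red blood cell genes rose at 5 of 12. Hbb-bs, a beta globin, was at 106, 273 and 231 CPM in the young and 615, 1190 and 791 CPM in the aged libraries, with 2.09 (SE 0.38, adjusted p = 0.0163). Alas2, the first enzyme of red cell heme synthesis, was at 6.41, 13 and 11.8 CPM in the young and 24.1, 34.1 and 25.1 CPM in the aged libraries, with 1.42 (SE 0.23, adjusted p = 0.00314). Hbb-bs lost its call on leaving out young replicate 3 or aged replicate 3 (adjusted p of 0.0526 to 0.0614). Summed, Hba-a1, Hbb-bs and Alas2 ran from 203 to 459.6 CPM in the young and from 1050 to 1957 CPM in the aged libraries, with young replicate 1 lowest. Globin copies are near identical, so the split between them is uncertain. Blood left in the tissue was not measured, and its part in the vessel and globin results was not tested.

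Several collagens and tendon proteins fell, and the young libraries were widely spread for them. Of 35 collagens 5 fell and 1 rose, with a median of -0.51, and none was called higher on leaving out any of the 6 libraries. Collagens called lower numbered 2 without young replicates 2 or 3 or aged replicates 1 or 3, 3 without aged replicate 2 and 10 without young replicate 1. Col1a2, a chain of type I collagen, was at 189.7, 550 and 599.5 CPM in the young and 93.9, 129 and 123 CPM in the aged libraries, with -1.96 (SE 0.42, adjusted p = 0.0336). Col22a1, a collagen of the muscle and tendon junction, was at 33.4, 37.4 and 39.8 CPM in the young and 15.4, 17.8 and 15.9 CPM in the aged libraries, with -1.17 (SE 0.15, adjusted p = 0.000559), and Col11a2 at 11.3, 20.9 and 19.9 CPM in the young and 7.28, 5.79 and 5.58 CPM in the aged libraries, with -1.48 (SE 0.24, adjusted p = 0.00272). Of 19 tendon genes 7 fell and none rose, and 9 fell without young replicate 1. Tendon genes called lower numbered 4 without young replicates 2 or 3 or aged replicate 2. Cilp2, a cartilage and tendon matrix protein, was at 12.7, 34.7 and 36.2 CPM in the young and 2.96, 3.11 and 2.86 CPM in the aged libraries, with -3.23 (SE 0.39, adjusted p = 0.00102), and Chad, chondroadherin, at 24.4, 38 and 43 CPM in the young and 6.0, 7.17 and 9.38 CPM in the aged libraries, with -2.23 (SE 0.39, adjusted p = 0.0088). Young replicate 1 was the lowest young library for Col1a2, Cilp2 and Chad. Col1a2 lost its call on leaving out young replicates 2 or 3 or aged replicates 1, 2 or 3 (adjusted p of 0.093 to 0.121). Fibroblast markers Pdgfra, Dcn and Col1a1 summed to 535.5 to 1005 CPM in the young and 532.6 to 675.6 CPM in the aged libraries, and tendon markers Scx, Tnmd and Fmod to 196.1 to 372.5 CPM and 97.0 to 152.8 CPM.

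Other matrix genes went both ways. Of 46 glycoproteins and proteoglycans 4 rose and 5 fell, and of 40 matrix processing genes 3 rose and 3 fell, or 4 and 9 without young replicate 1. Glycoproteins and proteoglycans called higher numbered 2 without young replicates 1 or 3 or aged replicates 1, 2 or 3. Glycoproteins and proteoglycans called lower numbered 2 without young replicates 2 or 3 or aged replicates 1, 2 or 3. Mfap4, a microfibril protein, was at 8.51, 15.2 and 13.4 CPM in the young and 3.54, 4.56 and 4.04 CPM in the aged libraries, with -1.61 (SE 0.22, adjusted p = 0.000852). Lama5, a laminin of basement membranes, was at 51.6, 47.2 and 48.8 CPM in the young and 100.4, 82.9 and 77.4 CPM in the aged libraries, with 0.82 (SE 0.12, adjusted p = 0.00104). Timp3 and Timp4, inhibitors of matrix proteases, both rose. Timp3 was at 95.4, 60.8 and 75.7 CPM in the young and 207, 138 and 170.3 CPM in the aged libraries, with 1.15 (SE 0.18, adjusted p = 0.00258), and Timp4 at 24.8, 11.2 and 11.4 CPM in the young and 40.1, 59.8 and 56 CPM in the aged libraries, with 1.72 (SE 0.31, adjusted p = 0.012). Of 22 fibro-adipogenic progenitor genes 2 rose and 2 fell, with a median of -0.09. Without each library in turn 1 to 3 of them were higher and 0 to 4 lower. Cxcl14, a chemokine and 1 of the 2 that rose, was at 37.8, 30.3 and 26 CPM in the young and 78.3, 60.2 and 72.7 CPM in the aged libraries, with 1.17 (SE 0.20, adjusted p = 0.00578). 

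Genes of skin, a tissue that lies over the muscle, fell at 3 of 9 tested. Dsp, which anchors desmosomes, was at 1.52, 7.39 and 6.54 CPM in the young and 0, 0.0316 and 0 CPM in the aged libraries. Ly6d, a surface protein of squamous epithelium and B cells, was at 6.71, 2.74 and 1.9 CPM in the young and 0, 0.0632 and 0.0328 CPM in the aged libraries, with -6.75 (SE 0.83, adjusted p = 0.000489). Ly6d had a log2 fold change of -7.61 without aged replicate 2. Ly6d had a log2 fold change of -6.04 without young replicate 1. Dsp was at 0 in 2 of the 3 aged libraries, and its fitted fold change is not given because it depends on the prior count. Ly6d was at or near 0 in the aged libraries, so the size of its fold change is uncertain too. Without young replicate 1, 6 of the 9 were lower. The part of attached skin in the young pieces was not tested.

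Immune genes showed few calls. Of 29 macrophage and monocyte genes 2 rose and 1 fell, or 10.3% called against 8.6% of all genes tested. Cd163, the haemoglobin receptor of resident macrophages, was at 15, 13.9 and 15 CPM in the young and 28.8, 26.7 and 23.3 CPM in the aged libraries, with 0.85 (SE 0.18, adjusted p = 0.0142), and Spp1, osteopontin, at 3.53, 5.0 and 3.28 CPM in the young and 1.57, 1.41 and 1.51 CPM in the aged libraries, with -1.40 (SE 0.36, adjusted p = 0.0327). The macrophage markers Adgre1, Csf1r and C1qa summed to 52.2 to 56.0 CPM in the young and 51.2 to 59.5 CPM in the aged libraries, which overlapped. Hdc, which makes histamine in mast cells, was at 0.931, 0.434 and 0.518 CPM in the young and 2.66, 2.62 and 2.64 CPM in the aged libraries, with 2.07 (SE 0.49, adjusted p = 0.0221). Cd163 lost its call on leaving out young replicates 2 or 3 or aged replicates 1 or 2 (adjusted p of 0.0512 to 0.0689). Spp1 lost its call on leaving out young replicates 2 or 3 or aged replicates 1, 2 or 3 (adjusted p of 0.0664 to 0.127). Hdc lost its call on leaving out young replicates 2 or 3 or aged replicates 1, 2 or 3 (adjusted p of 0.0619 to 0.101). None of 16 T, NK and innate lymphoid genes and none of 19 B and plasma cell genes was called by edgeR's quasi-likelihood test. Unadjusted p-values were under 0.05 at 4 and 7 of them, DESeq2 called 1 and 0, and limma-voom called 0 and 0. The B cell median was -4.20, and 0.15 without young replicate 1. Of 47 interferon response genes none was called, 4 had an unadjusted p under 0.05, DESeq2 called 1 higher and 1 lower, and limma-voom called none.

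The general protein synthesis machinery had a smaller share called than the 8.6% of all genes tested. None of 48 large ribosomal subunit genes was called by edgeR, DESeq2 or limma-voom, with 2 at an unadjusted p under 0.05 and a median of 0.00326. Of 34 small subunit genes 1 fell (2.94%), and of 44 translation factors 2 fell (4.55%). The muscle form of elongation factor, Eef1a2, was at 1646, 1807 and 1807 CPM in the young and 1288, 1308 and 1241 CPM in the aged libraries, with -0.45 (SE 0.10, adjusted p = 0.0131). Rpl3l, the ribosomal protein of mature muscle, was at 443, 474 and 441 CPM in the young and 459, 428 and 414 CPM in the aged libraries, which overlapped (adjusted p = 0.691). Eef1a2 lost its call on leaving out young replicate 3 or aged replicate 3 (adjusted p of 0.0596 to 0.0655). Ribosomal protein genes have many pseudogenes, so their single values are uncertain.

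Cell cycle genes did not pass the test. None of 27 proliferation genes was called, 24 had negative fold changes, and the median was -0.99, or -0.67 without young replicate 1. At an unadjusted p under 0.05 there were 10, DESeq2 called 6 lower, limma-voom called 2 lower and the fit of the 6 vehicle libraries 8 lower. Mki67, a marker of dividing cells named after its values were seen, was at 5.89, 2.1 and 1.89 CPM in the young and 1.07, 0.979 and 1.02 CPM in the aged libraries (adjusted p = 0.0719). Of 26 cell cycle inhibitors and p53 targets, 4 rose and 3 fell. Inhibitors and targets called higher numbered 2 without young replicate 3. Cdkn1a, the inhibitor p21, was at 22.1, 26.2 and 21.8 CPM in the young and 121, 50.8 and 56.1 CPM in the aged libraries, with 1.70 (SE 0.32, adjusted p = 0.0135). Cdkn2c, the inhibitor p18, was at 8.66, 10.2 and 11.3 CPM in the young and 4.87, 4.91 and 4.94 CPM in the aged libraries, with -1.03 (SE 0.14, adjusted p = 0.000773), and Cdkn1b, the inhibitor p27, at 45.4, 45 and 49.5 CPM in the young and 27.4, 28.3 and 30 CPM in the aged libraries, with -0.71 (SE 0.09, adjusted p = 0.000559). Eda2r, a death receptor under p53 control, was at 17.1, 18.8 and 18.2 CPM in the young and 29.8, 31.5 and 43.5 CPM in the aged libraries, with 0.95 (SE 0.20, adjusted p = 0.0134). Cdkn1a lost its call on leaving out young replicate 3 (adjusted p = 0.0611). Eda2r lost its call on leaving out young replicate 3 or aged replicate 3 (adjusted p of 0.0568 to 0.0569).

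Large changes also appeared in genes of no list. Krt18, a keratin of simple epithelia, was at 0.295, 0.243 and 0.0576 CPM in the young and 7.16, 2.84 and 8.1 CPM in the aged libraries, with 4.92 (SE 0.68, adjusted p = 0.00273). Prune2 was at 2.14, 5.29 and 6.02 CPM in the young and 44.3, 42.6 and 29.5 CPM in the aged libraries, with 3.11 (SE 0.34, adjusted p = 0.000592). Cyp4f39, a cytochrome P450 of fatty acid hydroxylation, was at 2.48, 6.05 and 6.52 CPM in the young and 40.2, 37.8 and 34.6 CPM in the aged libraries, with 2.90 (SE 0.38, adjusted p = 0.00228). All 3 had aged libraries above 2 CPM and no overlap with the young. Nmb, the peptide neuromedin B, was at 0.916, 0.538 and 0.317 CPM in the young and 5.79, 3.93 and 2.66 CPM in the aged libraries, with 2.80 (SE 0.38, adjusted p = 0.000886), and Insyn2b at 0.236, 0.347 and 0.144 CPM in the young and 2.59, 3.05 and 4.5 CPM in the aged libraries, with 3.80 (SE 0.71, adjusted p = 0.0064). Oacyl and Tmem132b rose by 2.97 (SE 0.42) and 3.13 (SE 0.45). Among the falls, Galr2, a receptor of the peptide galanin, was at 6.25, 6.33 and 7.18 CPM in the young and 0.246, 0.395 and 0.772 CPM in the aged libraries, with -3.80 (SE 0.44, adjusted p = 0.000291). Adgrb2, an adhesion receptor, was at 1.71, 2.79 and 3.94 CPM in the young and 0.0704, 0.426 and 0.197 CPM in the aged libraries, with -3.58 (SE 0.56, adjusted p = 0.00198). Adgrb2 had a log2 fold change of -4.36 without aged replicate 2. A separate list of 33 solute carriers had 4 higher and 3 lower. Without each library in turn it had 3 to 5 higher and 1 to 3 lower. In that list Slc38a3, a glutamine carrier, was at 73.2, 111 and 99.8 CPM in the young and 219, 196 and 157 CPM in the aged libraries, with 1.01 (SE 0.20, adjusted p = 0.0122), and Slc38a4, an amino acid carrier, at 83.4, 87.8 and 106 CPM in the young and 40.5, 45.1 and 35.6 CPM in the aged libraries, with -1.19 (SE 0.16, adjusted p = 0.000832). 

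Socs3, a feedback inhibitor of cytokine receptors, was at 7.77, 7.5 and 8.25 CPM in the young and 4.56, 2.53 and 3.19 CPM in the aged libraries, with -1.20 (SE 0.22, adjusted p = 0.00593). Cish, an inhibitor of the same family induced by growth hormone, and Pim1, a kinase induced by cytokines, were picked after their values were seen. Cish was at 29.3, 9.51 and 8.29 CPM in the young and 1.46, 1.14 and 1.71 CPM in the aged libraries, with -3.45 (SE 0.56, adjusted p = 0.00682), and Pim1 at 23.1, 22.1 and 22.8 CPM in the young and 10.7, 10.8 and 10.4 CPM in the aged libraries, with -1.09 (SE 0.10, adjusted p = 5.57e-05). Cish had a log2 fold change of -2.63 without young replicate 1. Young replicate 1 held the highest Cish level, and every aged library was under 2 CPM.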

How the data were processed

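Libraries were made with a KAPA mRNA kit from TRIzol-purified total RNA, per the labels' protocols. The authors deposited raw counts per gene, whole numbers with a gene length column, for 56791 genes. HISAT2, SAMtools, FastQC and DESeq2 appear in the submitters' processing notes with no version, as do the builds mm10 and GRCm39. Which counter and annotation were used, and whether strand was, is not given in the sources used here, so reads of overlapping genes and near-identical copies cannot be assigned with certainty.

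The test was edgeR 4.0.16 (R 4.3.3) with filterByExpr (counts of at least 10, total of at least 15), TMM factors and a robust quasi-likelihood fit with a mean per group over all 9 libraries. Two-sided p-values took a Benjamini-Hochberg adjustment over 17534 genes, and a gene was called under 0.05. SE is the log2 fold change divided by the square root of F. Every adjusted p in the text comes from this test unless another tool is named. Groups came from the sample titles. Depth was 51543383 to 61680520 counts per vehicle library.

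The genes, lists and comparisons were chosen with earlier results of these data known. Named genes were the 15 largest rises and falls with a mean of at least 2 CPM and no overlap, the 10 largest in CPM, up to 5 called members of each list (up to 2 of others), the isoform pairs and 12 fixed genes, and others are said to be named after their values were seen. A few genes that this rule selects are not reported here. Alternatives were DESeq2 1.42.0, limma-voom (limma 3.58.1), other scalings and filters, the 6 vehicle libraries alone, a replicate block and leaving out each library. Promoters are RefSeq windows (GRCm38.p6). On simulated counts for this comparison (17534 genes) the test recovered 17.9% of 1.5-fold, 42.7% of 2-fold and 76.8% of 4-fold changes, and 7 of 102 calls were false. At a mean of 2 CPM or more it recovered 27, 70.5 and 95.7%. These changes were put into 56, 75 and 69 genes, fewer than were called in the data, so the rates need not hold there. Figures were drawn from these values.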

Additional observations from a re-analysis of the deposited data

How the results depend on the processing

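The number of genes called was 1468 with RLE factors, 1499 with library totals, 1682 with no filter on low counts, 1590 after a filter at a mean of 1 CPM, 2105 with limma-voom and 2400 with DESeq2, of which 1254 were higher and 1146 lower. In the fit of the 6 vehicle libraries alone 1180 genes were called higher. Leaving out each library in turn gave 749 to 1456 calls, 377 to 708 higher and 371 to 748 lower. Replicate numbers did not pair the libraries, since deviations of libraries with the same number correlated at 0.0245, 0.0302 and 0.00147. With a replicate block 1312 genes were called. Of the 1508 calls, 598 remained in every alternative.

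The direction of 6 uncalled genes close to 0 changed on leaving out a library, and the cause was not tested. Over the omissions the log2 fold change ran from -0.0565 to 0.314 for Casq2, -0.0249 to 0.135 for Chrne, -0.246 to 0.0616 for Ckb, -0.095 to 0.0799 for Cox6a1, -0.0552 to 0.0979 for Cox8a and -0.0654 to 0.123 for Hk1. Cox8a, at -0.00111 as reported, also had 0.00214 with RLE factors, 0.00794 with library totals, 0.00525 with no filter, 0.00217 with DESeq2, 0.00962 with limma-voom, 0.00344 in the 6 vehicle libraries alone and 0.00111 with the replicate block. Precision is limited by 3 libraries a group, by low counts (1.70% of genes under 1 CPM were called) and by young replicate 1.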
